A study of Mus musculus with 6 samples.

Results

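The SLC25 genes encode the mitochondrial carriers, the transporters that exchange nucleotides, phosphate, carboxylates, amino acids, coenzymes and metal ions between the cytosol and the mitochondrial matrix. They were taken as the protein-coding rows of the gene table whose name starts with Slc25a and a digit. This gave 47 of 54532 genes. The table holds 1 further name match, Slc25a5-ps, which is annotated as a transcribed processed pseudogene and was left out. Expression was measured by RNA-sequencing of kidney tissue from 3 wild-type (WT) mice and 3 Trpm2-/- mice, the latter numbered 1, 2 and 4, with the strain of both groups labelled C57BL/6J. Every mouse of both genotypes had received cisplatin at 18 mg/kg, and kidneys were taken after 72 h. Cisplatin is a platinum drug against tumours that injures the kidney tubule. Kidneys without cisplatin were not analysed here, so each difference below is one between genotypes after the drug. The labels give an age of 6-8 weeks, which is younger than the range in the methods of the study. The Trpm2-/- mice lack the function of TRPM2, a calcium-permeable cation channel, through a deletion of exons that encode part of the membrane-spanning domain. WT mice came from a commercial supplier and the Trpm2-/- line from another university, and the sources used here do not state that the mice were littermates.

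Most SLC25 proteins sit in the inner mitochondrial membrane, which small charged molecules do not cross on their own. The carriers share a fold of repeated modules around a central binding site and usually exchange one substrate for another. The kidney proximal tubule is rich in mitochondria, since it reabsorbs most of the filtered solutes, and it also makes glucose from carboxylates and amino acids. Cisplatin is taken up by these cells.

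The deposited counts summed to 14053307 to 17150089 per mouse. Trpm2 had 5, 5 and 27 counts in the WT mice and 10, 16 and 20 in the Trpm2-/- mice. These are counts over the whole gene at a level near 0, and reads from exons outside the deletion are included, so they do not check the genotype. The 12 markers fixed for the proximal tubule summed to 1195 to 1592 FPKM in the WT mice and 457.8 to 613 FPKM in the Trpm2-/- mice, where FPKM is the level of a gene scaled by its length and the library total, and 12 of 12 were lower at an adjusted p under 0.05, with a median log2 fold change of -1.62. None of the 12 was at 0. The 6 collecting duct markers summed to 709 to 893 FPKM in the WT mice and 403 to 479 FPKM in the Trpm2-/- mice. Most of this sum was Aqp2, with a mean of 693 FPKM in the WT mice and 345 FPKM in the Trpm2-/- mice. Aqp2 and Aqp3 were lower, and the other 4 were not called, 2 of them with a log2 fold change above 0. Of 5 tested markers of the thick ascending limb and distal tubule, Umod was lower and 4 were not called. The 4 markers of tubular injury summed to 1034 to 1230.0 FPKM in the WT mice and 1474 to 1849 FPKM in the Trpm2-/- mice, and 1 of them, Krt20, was higher. Genes of the mitochondrial genome held 4.43 to 4.72% of the counts in the WT mice and 7.91 to 11.04% in the Trpm2-/- mice. WT replicate 1 had adipocyte markers at a sum of 7.30 FPKM against at most 0.434 FPKM elsewhere, and Trpm2-/- replicate 4 had markers of podocytes and endothelium at 85.2 FPKM against 21.8 to 32.2 FPKM. In RNA of kidney tissue, fewer cells of a type and less RNA per cell cannot be told apart. The part of these shifts in the carrier values was not tested.

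In the Trpm2-/- kidneys 11 carriers were lower and 2 were higher than in the WT kidneys. The carriers that fell included the most abundant one, the ADP/ATP carrier Slc25a5, together with the dicarboxylate carrier Slc25a10 and the glutathione-linked Slc25a39. They also included the coenzyme A carrier Slc25a42, and Slc25a34 and Slc25a48, which were grouped here as of unsettled substrate. The carriers that rose were Slc25a24, an ATP-Mg/phosphate carrier, and Slc25a37, the iron carrier mitoferrin-1. Without either WT replicate 2 or WT replicate 3 the counts were 6 lower and 0 higher, and Slc25a24 and Slc25a37 each kept their call in 1 of the 6 fits that left out a mouse. Of the 47 carriers, 43 passed the filter on low counts and were tested among 15816 genes, with edgeR's quasi-likelihood test and Benjamini-Hochberg adjustment over all of these genes. The 11 lower calls were 25.6% of the tested carriers, beside 7.28% of all genes tested. The 2 higher calls were 4.65%, beside 4.74% of all genes, so the share of higher calls was near the background. Under the threshold named in the study, an absolute log2 fold change above 1 with p under 0.05 (taken as unadjusted), Slc25a34 and Slc25a48 were lower and no carrier was higher, beside 4.10% lower and 3.50% higher among all genes. At an unadjusted p under 0.05 alone, 24 carriers were lower and 2 were higher, beside 14.3% and 14.0% of all genes.

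The median log2 fold change of the 43 tested carriers was -0.44, within a range of -1.08 to 1.12, and that of all genes tested was 0.02. The log2 fold change was below 0 for 33 of the 43 carriers (76.7%) and for 48.4% of all genes. In 24 carriers (55.8%) every Trpm2-/- mouse was below every WT mouse, beside 16.8% of all genes, and in 3 carriers (6.98%) every Trpm2-/- mouse was above every WT mouse, beside 16.7%. Summed over the 47 carriers, the FPKM values came to 1675, 1842 and 1769 in the WT mice and 1201, 1124 and 1141 in the Trpm2-/- mice. The groups did not overlap, and the ratio of the means was 0.656. Slc25a5 alone held 26.7% ± 1.16 (SD, n = 3) of this sum in the WT mice and 20.7% ± 2.04 (SD, n = 3) in the Trpm2-/- mice, and without it the ratio was 0.709. The proximal tubule markers had a ratio of 0.385, so the carrier sum per unit of these markers was 1.33 ± 0.19 (SD, n = 3) in the WT mice and 2.27 ± 0.38 (SD, n = 3) in the Trpm2-/- mice.

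**Figure D1:**
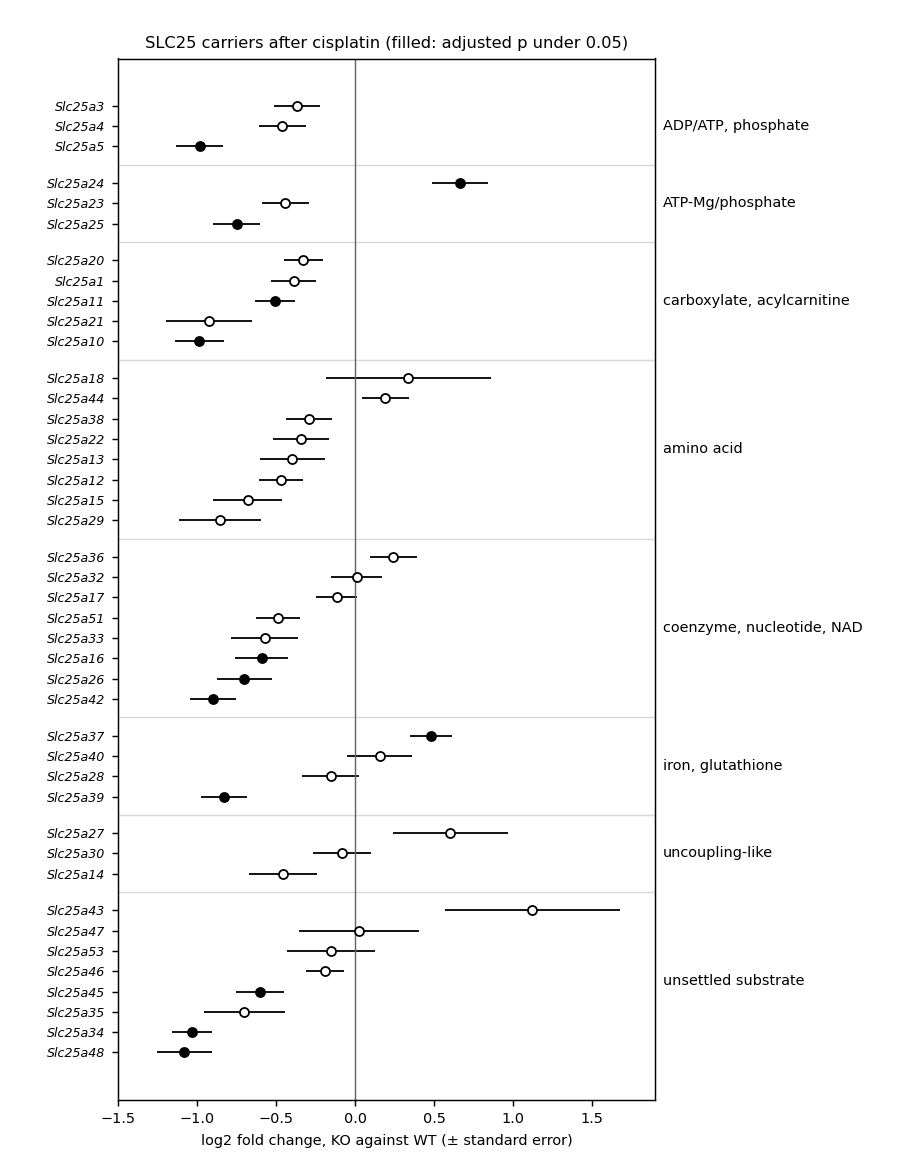
Log2 fold change (KO, the Trpm2-/- mice, against WT) of the tested carriers reported here on the horizontal axis, ordered within groups by role, with bars for the standard error and filled points for an adjusted p under 0.05. Of the 13 filled points, 11 lie below 0, and the filled points above 0 are Slc25a24 and Slc25a37.

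The order of the carriers by level was similar at the top in both genotypes. In the WT mice the highest mean FPKM values were those of Slc25a5, Slc25a39, Slc25a10, Slc25a3 and Slc25a4. In the Trpm2-/- mice the order was Slc25a5, Slc25a39, Slc25a3, Slc25a4 and Slc25a10. These 5 carriers held 64.7% ± 0.23 (SD, n = 3) of the carrier sum in the WT mice and 57.4% ± 0.89 (SD, n = 3) in the Trpm2-/- mice. Slc25a10 lay above Slc25a3 within each WT mouse, with overlapping ranges, and below it within each Trpm2-/- mouse, a change of order that was not tested. Slc25a24 moved from rank 26 to rank 14 and Slc25a37 from rank 29 to rank 15, while Slc25a34 moved from rank 15 to rank 26.

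**Figure D2:**
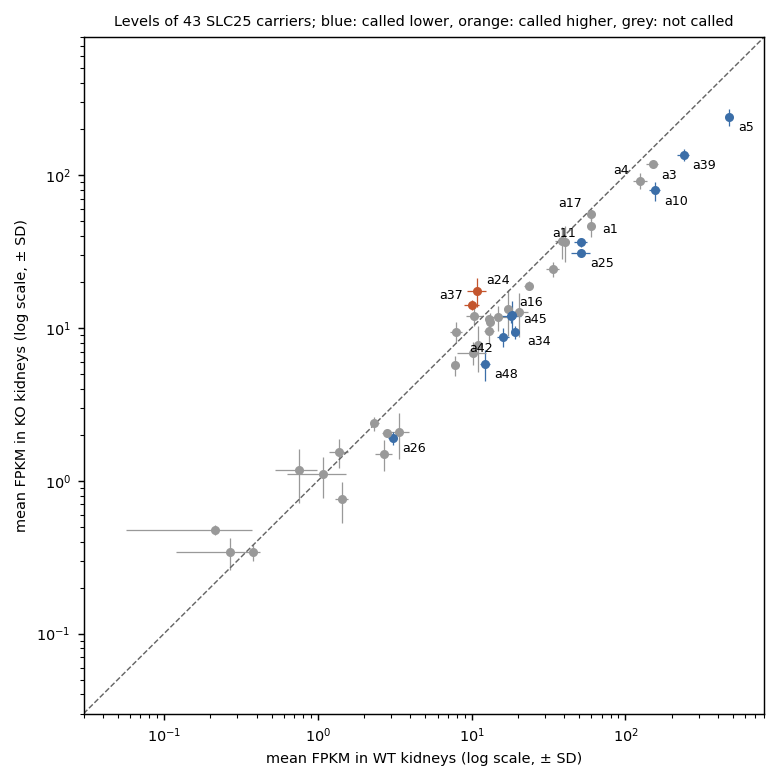
Mean FPKM of the 43 tested carriers in WT (horizontal) and KO (Trpm2-/-, vertical) kidneys on log axes, with bars for the SD over 3 mice and a dashed line of equal levels. The 11 blue points, lower at an adjusted p under 0.05, lie under the line from Slc25a26 near 3 FPKM to Slc25a5, and the 2 orange points above it are Slc25a24 and Slc25a37.

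The first role group exports ATP made in the matrix and supplies it with ADP and phosphate. Slc25a5, the ADP/ATP carrier of many tissues (chrX:36795651-36798807, plus strand, here and below in GRCm38), was the highest carrier. Slc25a5 measured 470.0, 482 and 459.7 FPKM in the WT mice and 272, 209 and 238 FPKM in the Trpm2-/- mice. The groups were far apart (log2 fold change -0.99, SE 0.15, adjusted p = 0.00457, edgeR). The mean fell from 471 ± 11.03 FPKM (SD, n = 3) to 239.6 ± 31.7 FPKM (SD, n = 3). Of the 75-base windows of its transcripts, 19.8% also occurred in 6 other genes, including processed pseudogenes, so reads could be split among them. Slc25a4, the isoform typical of heart and muscle (chr8:46206797-46211284, minus strand), had values of 116, 141 and 118 FPKM in the WT mice against 84.8, 104 and 85.6 FPKM in the Trpm2-/- mice. No Trpm2-/- mouse reached the lowest WT mouse, but the difference did not pass the test (log2 fold change -0.46, SE 0.15, adjusted p = 0.0752, edgeR). Slc25a4 was called lower by DESeq2 (adjusted p = 0.0291) and by edgeR without Trpm2-/- replicate 2 (adjusted p = 0.0443), and in none of the other 14 alternatives. Slc25a3 measured 136, 162 and 153 FPKM in the WT mice and 122, 110.4 and 119.7 FPKM in the Trpm2-/- mice. This gene encodes the phosphate carrier (chr10:91116574-91124059, minus strand), and again the groups did not overlap while the test was not passed (log2 fold change -0.37, SE 0.14, adjusted p = 0.132, edgeR). Slc25a31, the isoform of male germ cells, had 0 to 2 counts per mouse and was not tested. Of the 3 tested genes of the group, 1 was lower, beside 7.28% of all genes tested.

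The ATP-Mg/phosphate carriers move adenine nucleotides in exchange for phosphate, and most of them carry calcium-binding domains on their cytosolic side. Within this group Slc25a25 fell and Slc25a24 rose. Slc25a25 measured 52.6, 58.6 and 43.5 FPKM in the WT mice and 29.8, 31.3 and 31.6 FPKM in the Trpm2-/- mice. Every Trpm2-/- mouse was below every WT mouse, and the Trpm2-/- values lay close together (log2 fold change -0.75, SE 0.15, adjusted p = 0.0127, edgeR). Slc25a24 measured 12.3, 11.3 and 9.20 FPKM in the WT mice and 20.99, 13.7 and 17.5 FPKM in the Trpm2-/- mice. Here every Trpm2-/- mouse was above every WT mouse, with replicate 2 the nearest to the WT range (log2 fold change 0.66, SE 0.18, adjusted p = 0.0410, edgeR). Slc25a23, the third tested gene, ranged from 12.3 to 14.02 FPKM in the WT mice and from 8.10 to 11.5 FPKM in the Trpm2-/- mice and did not pass the test (log2 fold change -0.44, adjusted p = 0.0873, edgeR). Slc25a41 and Slc25a54 had at most 2 counts in any mouse and were not tested. Slc25a25 lies at chr2:32414487-32451445, minus strand, and Slc25a24 at chr3:109123149-109168457, plus strand.

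Promoters of the carriers were searched for 6 motifs of regulators of metabolic and mitochondrial genes, which were chosen with the results known. RefSeq promoters (GRCm38.p6, 250 bases before to 50 bases after the start) were matched for 36 of the 47 carriers, in 46 promoters. The 11 carriers without an entry included Slc25a2, Slc25a26, Slc25a27, Slc25a32, Slc25a35, Slc25a37, Slc25a41, Slc25a44, Slc25a46 and Slc25a51. The cAMP response element, TGACGTCA, which reads the same on both strands, was present in 2 of the 36 matched carriers (5.56%) and in 2.03% of 27025 genes. The carriers were Slc25a25, in 1 of its 3 listed promoters, and Slc25a36, a pyrimidine nucleotide carrier that was not called (log2 fold change 0.24, adjusted p = 0.322, edgeR). The motif began 150 bases before 1 of the 3 listed starts of Slc25a25 and 161 bases before the start of Slc25a36. The match of Slc25a25 lies inside the annotated gene, before an internal start. Both stretches are shown 5′ to 3′ on the minus strand, the strand of the genes, with the motif in capitals, at chr2:32424193-32424232 for Slc25a25 and chr9:97111179-97111218 for Slc25a36.
Slc25a25: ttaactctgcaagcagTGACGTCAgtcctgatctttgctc
Slc25a36: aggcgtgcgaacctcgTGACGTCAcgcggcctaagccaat
The bases around the motif differed between the genes, with a GC content of 47.5% for Slc25a25 and 62.5% for Slc25a36. None of the 36 matched carriers held the other 5 sequences on either strand. These were TCAAGGTCA for ERR (0.466% of all genes), CAAAGTCCA for HNF4 (0.555%), the repeat of AGGTCA with a single base between the copies for PPAR (0.0481%), GCGCA followed directly by TGCGC for NRF1 (1.07%), and the E-box CACGTG with GT before it and AC after it (0.370%). A match describes the letters of this window only.

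The carboxylate carriers link the citric acid cycle with the cytosol, where malate, citrate and oxoglutarate feed glucose, lipid and redox metabolism. All 5 had a log2 fold change below 0, beside 48.4% of all genes tested. At an adjusted p under 0.05, 2 of them were lower, beside 7.28% of all genes. Slc25a10, which exchanges malate or succinate for phosphate or sulfate (chr11:120491840-120499187, plus strand), had values of 141, 167 and 159 FPKM in the WT mice against 86.4, 66.3 and 85.05 FPKM in the Trpm2-/- mice. Each Trpm2-/- mouse was far below the lowest WT mouse (log2 fold change -0.99, SE 0.16, adjusted p = 0.00521, edgeR). Slc25a11 measured 46.6, 50.7 and 56.3 FPKM in the WT mice and 33.5, 37.3 and 38.1 FPKM in the Trpm2-/- mice. It encodes the oxoglutarate/malate carrier, a part of the malate-aspartate shuttle (chr11:70644196-70647479, minus strand), and its groups were apart too (log2 fold change -0.51, SE 0.13, adjusted p = 0.0339, edgeR). Exons of Rnf167 on the other strand cover 8.92% of its exonic bases. Whether the counting used strand is not given in the sources used here, and without it reads from both genes cannot be told apart. Slc25a1, the citrate carrier, measured 60.2, 62.2 and 57.7 FPKM in the WT mice against 52.5, 47.3 and 38.8 FPKM in the Trpm2-/- mice, a difference that did not pass the test (log2 fold change -0.39, adjusted p = 0.108, edgeR). Slc25a20 measured 21.9, 23.8 and 25.04 FPKM in the WT mice and 20.4, 18.5 and 17.9 FPKM in the Trpm2-/- mice. This carnitine-acylcarnitine carrier of fatty acid oxidation was also not called (log2 fold change -0.33, adjusted p = 0.119, edgeR). Slc25a21, the oxodicarboxylate carrier, was at a low level of 1.27 to 1.52 FPKM in the WT mice and 0.602 to 1.02 FPKM in the Trpm2-/- mice, with a log2 fold change of -0.93 (adjusted p = 0.0543) by edgeR.

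Of the 8 tested amino acid carriers none was called at an adjusted p under 0.05 by edgeR. At an unadjusted p under 0.05, 3 were lower, beside 14.3% of all genes tested. By DESeq2 3 were lower, beside 1444 of the 15816 genes. The log2 fold changes of the 8 carriers ran from -0.86 to 0.34. Slc25a12 and Slc25a13 are the aspartate/glutamate carriers of the malate-aspartate shuttle. Slc25a12 measured 7.30, 8.00 and 8.14 FPKM in the WT mice and 5.98, 4.74 and 6.36 FPKM in the Trpm2-/- mice, and the groups did not overlap (log2 fold change -0.47, SE 0.14, adjusted p = 0.0594, edgeR). Slc25a12 was called lower by DESeq2 (adjusted p = 0.0442) and by edgeR with no filter on low counts (adjusted p = 0.0363). Slc25a13 measured 16.7, 18.1 and 17.04 FPKM in the WT mice and 18.2, 10.7 and 10.7 FPKM in the Trpm2-/- mice. Trpm2-/- replicate 1 was above all WT mice and the other two were below them (log2 fold change -0.40, adjusted p = 0.240, edgeR). Slc25a13 was called lower when that mouse was left out (log2 fold change -0.71, adjusted p = 0.0144, edgeR). The other 5 fits that left out a mouse made no call and gave log2 fold changes of -0.43 to -0.25 with adjusted p values of 0.307 to 0.495. Slc25a22, the glutamate carrier, measured 12.2, 15.4 and 16.7 FPKM in the WT mice against 11.8, 13.9 and 9.53 FPKM in the Trpm2-/- mice, and the groups overlapped (log2 fold change -0.34, adjusted p = 0.239, edgeR). Slc25a15, the ornithine carrier that serves the urea cycle, had a log2 fold change of -0.68 (adjusted p = 0.0750), and Slc25a29, a carrier of basic amino acids, one of -0.86 (adjusted p = 0.0610). Slc25a38, the glycine carrier of haem synthesis, had a log2 fold change of -0.29 (adjusted p = 0.224). Slc25a44, a carrier of branched-chain amino acids, and Slc25a18, a second glutamate carrier, had log2 fold changes above 0, of 0.19 (adjusted p = 0.441) and 0.34 (adjusted p = 0.723). Slc25a2, an ornithine carrier, had 0 to 4 counts and was not tested.

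Carriers of coenzymes, nucleotides and NAD supply the matrix with cofactors. Of 9 tested, 3 were lower and none was higher, beside 7.28% lower and 4.74% higher among all genes tested. Slc25a42 measured 16.7, 14.5 and 17.04 FPKM in the WT mice and 8.93, 7.35 and 9.78 FPKM in the Trpm2-/- mice. This coenzyme A carrier (chr8:70184340-70212305, minus strand) was lower in each Trpm2-/- mouse than in any WT mouse (log2 fold change -0.90, SE 0.14, adjusted p = 0.00542, edgeR). Slc25a26 measured 3.32, 3.00 and 2.93 FPKM in the WT mice and 2.04, 1.99 and 1.69 FPKM in the Trpm2-/- mice. It imports S-adenosylmethionine (chr6:94500331-94604672, plus strand), and its groups were also apart at this low level (log2 fold change -0.70, SE 0.17, adjusted p = 0.0306, edgeR). Slc25a16 (chr10:62920633-62946498, plus strand) had values of 17.4, 19.5 and 17.7 FPKM in the WT mice against 15.2, 9.64 and 11.7 FPKM in the Trpm2-/- mice. Trpm2-/- replicate 1 lay nearest to the WT mice, and the call was just past the threshold (log2 fold change -0.59, SE 0.17, adjusted p = 0.0497, edgeR). The NAD carrier Slc25a51 was just short of it (log2 fold change -0.49, adjusted p = 0.0535, edgeR). The pyrimidine nucleotide carrier Slc25a33 had a log2 fold change of -0.57 (adjusted p = 0.109). The peroxisomal Slc25a17 and the folate carrier Slc25a32 were nearest to 0 in this group, with log2 fold changes of -0.12 (adjusted p = 0.601) and 0.01 (adjusted p = 0.979).

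The iron and glutathione carriers serve the synthesis of haem and iron-sulfur clusters in the matrix and its supply of glutathione. Here 1 of 4 was lower and 1 was higher, beside 7.28% lower and 4.74% higher among all genes tested. Slc25a39 measured 216, 242 and 259 FPKM in the WT mice and 122, 146 and 138 FPKM in the Trpm2-/- mice. Slc25a39, which is needed for mitochondrial glutathione (chr11:102402985-102407946, minus strand), was the second highest carrier in both genotypes, and its groups were far apart (log2 fold change -0.83, SE 0.15, adjusted p = 0.00787, edgeR). Its relative Slc25a40 was at 1.16 to 1.52 FPKM in the WT mice and 1.24 to 1.89 FPKM in the Trpm2-/- mice (log2 fold change 0.15, adjusted p = 0.675, edgeR). Slc25a37 measured 11.1, 8.95 and 10.1 FPKM in the WT mice and 13.2, 13.99 and 15.3 FPKM in the Trpm2-/- mice. This mitoferrin of blood-forming cells (chr14:69241848-69285112, minus strand) was above the WT range in each Trpm2-/- mouse (log2 fold change 0.48, SE 0.13, adjusted p = 0.0432, edgeR). Of its 75-base windows 6.55% also occurred in other genes. Slc25a28, mitoferrin-2, the widely expressed one, measured 38.7, 43.3 and 38.8 FPKM in the WT mice against 31.9, 47.4 and 29.9 FPKM in the Trpm2-/- mice, with overlapping groups (log2 fold change -0.16, adjusted p = 0.624, edgeR).

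None of the 3 uncoupling-protein-like carriers was called, and none passed an unadjusted p under 0.05 in edgeR or the adjusted threshold in DESeq2. Slc25a30 measured 36.9, 43.3 and 35.8 FPKM in the WT mice and 40.9, 27.01 and 42.7 FPKM in the Trpm2-/- mice. The groups of this carrier, known for its expression in kidney, overlapped, with Trpm2-/- replicate 2 lowest (log2 fold change -0.08, adjusted p = 0.813, edgeR), and its sign changed when either Trpm2-/- replicate 2 or WT replicate 2 was left out. The log2 fold change was -0.46 (adjusted p = 0.195) for Slc25a14 and 0.60 (adjusted p = 0.318) for Slc25a27, which are best known from brain.

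Among the 8 carriers grouped here as of unsettled substrate 3 were lower, beside 7.28% of all genes tested. Slc25a34 measured 19.02, 19.8 and 18.3 FPKM in the WT mice and 9.33, 10.2 and 8.51 FPKM in the Trpm2-/- mice. The WT values of Slc25a34 (chr4:141618824-141623821, minus strand) spanned 18.3 to 19.8 FPKM and the Trpm2-/- values were near the middle between 0 and that range (log2 fold change -1.03, SE 0.13, adjusted p = 0.00221, edgeR). It had the smallest p of the family. Slc25a48 measured 13.1, 11.3 and 12.2 FPKM in the WT mice and 5.02, 7.33 and 5.13 FPKM in the Trpm2-/- mice. Slc25a48 (chr13:56438355-56474239, plus strand) had the lowest log2 fold change of the 43 carriers (log2 fold change -1.08, SE 0.17, adjusted p = 0.00537, edgeR). Slc25a45 (chr19:5877808-5885766, plus strand) had values of 14.8, 19.99 and 19.4 FPKM in the WT mice against 10.7, 12.7 and 12.6 FPKM in the Trpm2-/- mice, which did not overlap (log2 fold change -0.60, SE 0.15, adjusted p = 0.0341, edgeR). Slc25a43 had the highest log2 fold change of the family, 1.12 (adjusted p = 0.219), on 4 to 13 counts in the WT mice and 14 to 16 in the Trpm2-/- mice, and was not called. Slc25a35 had a log2 fold change of -0.70 (adjusted p = 0.109), and 22.3% of its 75-base windows also occurred in other genes. Slc25a46, Slc25a47 and Slc25a53 had log2 fold changes of -0.19 (adjusted p = 0.340), 0.03 (adjusted p = 0.975) and -0.15 (adjusted p = 0.769).

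**Figure D3:**
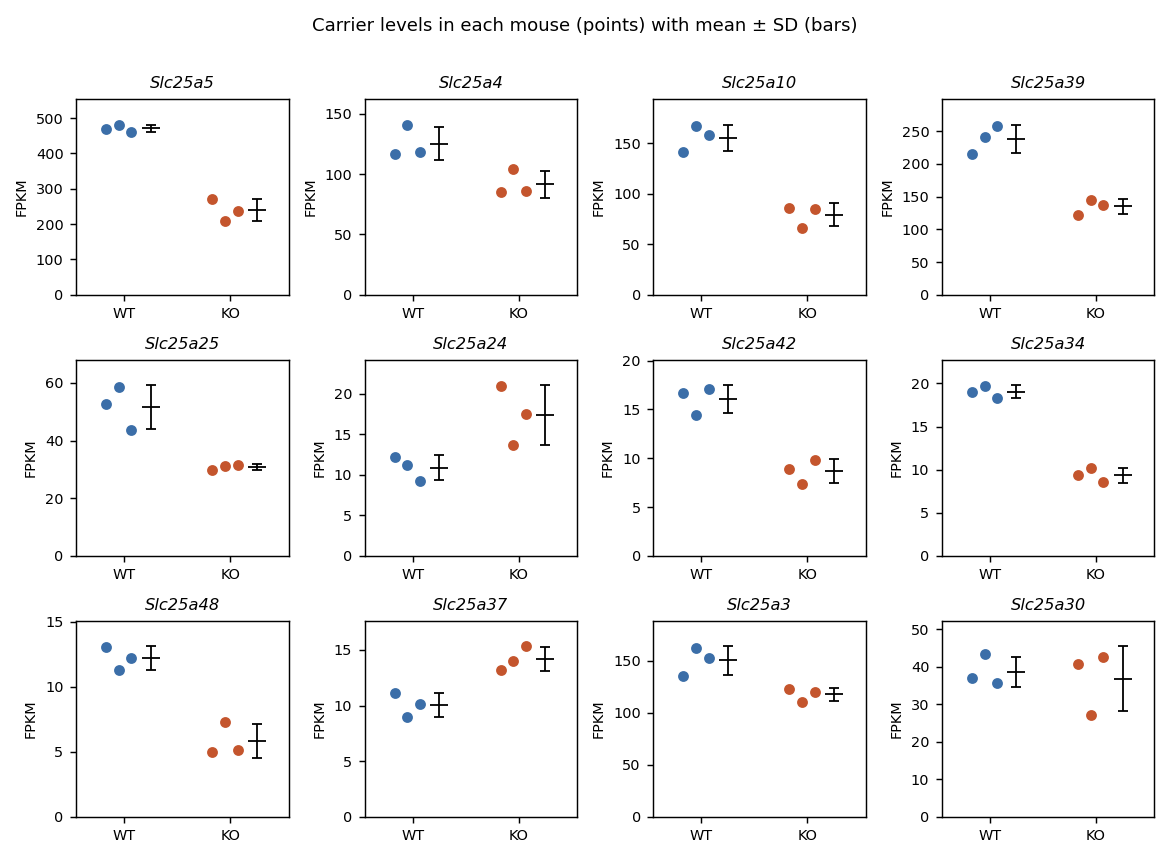
FPKM of 12 carriers in each mouse, with points for the 3 WT and 3 KO (Trpm2-/-) kidneys and bars for mean ± SD, each axis starting at 0. Slc25a24 and Slc25a37 are higher in every KO mouse, Slc25a30 overlaps, and the other 9 are lower in every KO mouse than in any WT mouse, among them Slc25a4 and Slc25a3, which did not pass the test. The 12 were picked for display and most of them were called. Of all 43 tested carriers, 24 (55.8%) were lower without overlap, beside 16.8% of all genes tested.

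Of the 13 calls, those of Slc25a5, Slc25a10, Slc25a34, Slc25a42 and Slc25a48 were made in each of 16 alternatives, 6 of which left out 1 mouse. The call of Slc25a39 was lost without WT replicate 3 (adjusted p = 0.0505) and that of Slc25a25 without WT replicate 2 (adjusted p = 0.0720), both by edgeR. That of Slc25a39 was also lost with the replicate number as a block (adjusted p = 0.0543, edgeR). Slc25a11 lost its call without Trpm2-/- replicate 1, WT replicate 2 or WT replicate 3 (adjusted p up to 0.180, edgeR), and Slc25a45 without Trpm2-/- replicate 1 or 4 or WT replicate 2 or 3 (up to 0.153). Slc25a26 lost it without Trpm2-/- replicate 4 or any WT mouse (up to 0.110). Slc25a16 and Slc25a37 kept it in no fit of 5 mice but the one without Trpm2-/- replicate 1 (up to 0.176 and 0.205), and Slc25a24 in none but the one without Trpm2-/- replicate 2 (up to 0.185). Without either WT replicate 2 or WT replicate 3, 6 carriers were lower and none was higher in edgeR, with 18 lower and 2 higher at an unadjusted p under 0.05. Without WT replicate 1, which had the adipocyte markers, 9 were lower and none was higher, with 24 lower and 3 higher at an unadjusted p under 0.05. Without Trpm2-/- replicate 4, 11 were lower and none was higher, with 20 lower and 2 higher at an unadjusted p under 0.05.

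Ratios of 2 carriers within a mouse do not depend on the scaling of the library. For 11 pairs of related carriers the log2 ratio of FPKM values was compared with a two-sided exact permutation test, which cannot go below p = 0.1 with 3 mice against 3. The groups did not overlap in 6 pairs, each with exact p = 0.1 and an adjusted p of 0.183 over the 11 pairs, so no pair passed 0.05. Among single genes, the groups did not overlap in 33.5% of all genes tested, and no such background was computed for pairs. Slc25a25 to Slc25a24 had the largest difference in size, with ratios of 4.29, 5.19 and 4.73 in the WT mice and 1.42, 2.29 and 1.81 in the Trpm2-/- mice. On the log2 scale this ratio fell by 1.39. Slc25a23 to Slc25a24, which shares the gene that rose, differed by -1.10. Slc25a4 to Slc25a5, the muscle-type over the common ADP/ATP carrier, was 0.247, 0.293 and 0.257 in the WT mice and 0.312, 0.500 and 0.360 in the Trpm2-/- mice. It was the pair that was higher in each Trpm2-/- mouse, by 0.53 on the log2 scale. Slc25a39 to Slc25a40 differed by -0.97, Slc25a28 to Slc25a37 by -0.67 and Slc25a10 to Slc25a11 by -0.49. The groups overlapped for Slc25a33 to Slc25a36 (-0.80, exact p = 0.2), Slc25a22 to Slc25a18 (-0.79, exact p = 0.3) and Slc25a14 to Slc25a30 (-0.35, exact p = 0.2). The smallest differences were those of Slc25a1 to Slc25a20 (-0.07, exact p = 0.5) and of Slc25a12 to Slc25a13 (-0.03, exact p = 1).

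**Figure D4:**
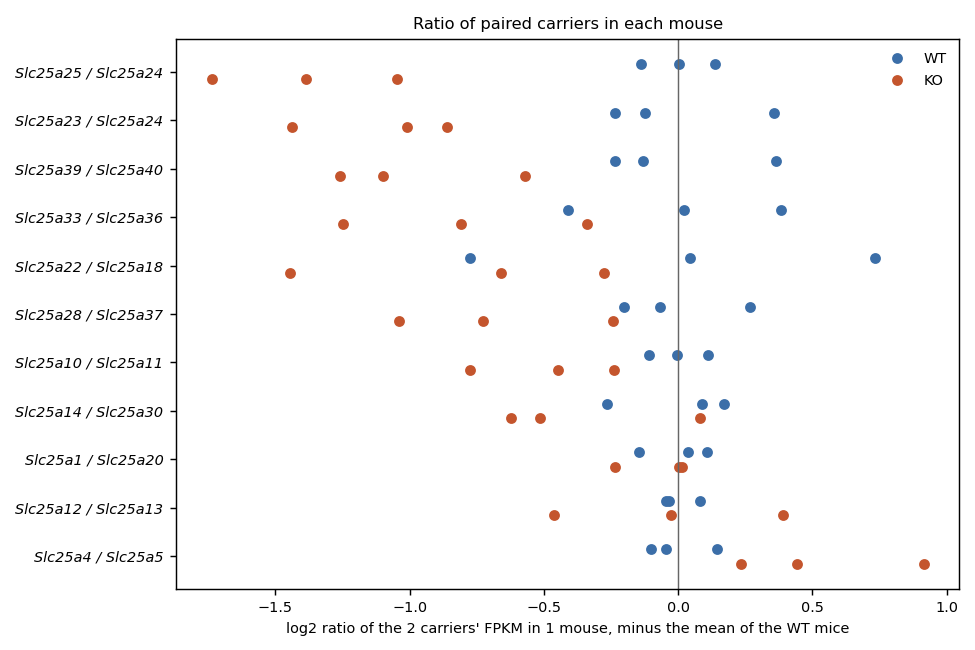
Log2 ratio of the FPKM values of 2 carriers in each mouse, minus the mean of the WT mice, for 11 pairs, with blue points for WT and orange points for KO (Trpm2-/-). The groups do not overlap in 6 pairs, and the ratio of Slc25a4 to Slc25a5 is the one of these that lies to the right in the KO mice.

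Some carriers are neighbours on the chromosome, with no other protein-coding gene between them. Slc25a43 ends 18448 bases before Slc25a5 on the same strand of chromosome X. Slc25a5 fell, and Slc25a43 had a log2 fold change of 1.12 at a few counts. On chromosome 12, Slc25a29 and Slc25a47 point away from each other across 162 bases, with log2 fold changes of -0.86 and 0.03, neither of them called. Slc25a24, which was called higher, follows Slc25a54 by 6461 bases on chromosome 3, and Slc25a41 follows Slc25a23 by 2056 bases on the minus strand of chromosome 17. Slc25a54 and Slc25a41 had too few counts for a test.

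Genes that work beside the carriers were counted from lists of related genes. Of all genes tested, 7.28% were lower and 4.74% higher, with a median log2 fold change of 0.02. Of 4 tested genes with a carrier fold but another name, Mtch1, a protein of the outer membrane, was lower (log2 fold change -0.74, adjusted p = 0.00853, edgeR) and Ucp2, an uncoupling protein relative, was higher (log2 fold change 0.60, adjusted p = 0.0497, edgeR). Ucp2 measured 62.95, 57.2 and 51.05 FPKM in the WT mice and 103, 83.6 and 73.6 FPKM in the Trpm2-/- mice, without overlap. The call of Ucp2 was just past the threshold, and no gene of the related lists was called higher when any WT mouse or Trpm2-/- replicate 1 or 2 was left out. Ucp3 and Mtch2 were not called, with log2 fold changes of 1.63 (adjusted p = 0.0661) and -0.36 (adjusted p = 0.103). Of 7 inner-membrane carriers of other families 4 were lower and none was higher, with a median log2 fold change of -0.70. They were Mpc2, a subunit of the pyruvate carrier (log2 fold change -0.94, adjusted p = 0.00470), and the sideroflexins Sfxn5 (log2 fold change -0.92, adjusted p = 0.0183), Sfxn1 (log2 fold change -0.70, adjusted p = 0.0211), a serine carrier, and Sfxn2 (log2 fold change -0.90, adjusted p = 0.0282), each by edgeR.

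Beside 7.28% lower and 4.74% higher among all genes tested, 13 of 26 enzymes that use the carried metabolites were lower and none was higher. The median log2 fold change of these enzymes was -0.53. The smallest p values belonged to Shmt2, which makes glycine from serine in the matrix (log2 fold change -1.33, adjusted p = 0.00126), Mdh1, the cytosolic malate dehydrogenase (log2 fold change -1.39, adjusted p = 0.00217), Pck1, the cytosolic enzyme that commits oxaloacetate to glucose synthesis (log2 fold change -1.73, adjusted p = 0.00221), and Ass1, of arginine synthesis (log2 fold change -1.21, adjusted p = 0.00385). Mdh1 measured 296, 362 and 394 FPKM in the WT mice and 133, 118 and 154 FPKM in the Trpm2-/- mice, without overlap. None of 9 regulators of mitochondrial genes was called by edgeR or by DESeq2, and 2 were lower and 1 was higher at an unadjusted p under 0.05. Among them the smallest p values were those of Esrra (log2 fold change -0.43, adjusted p = 0.112), Hnf4a (log2 fold change -0.49, adjusted p = 0.135), Ppara (log2 fold change 0.98, adjusted p = 0.146) and Ppargc1a (log2 fold change -0.46, adjusted p = 0.181). Of all genes tested 1152 were lower, against 521 without WT replicate 2 and 470 without WT replicate 3. Over all of these lists 18 genes were lower, against 9 without WT replicate 2 and 7 without WT replicate 3. The fall of the proximal tubule markers stands beside these counts too, and its part in them was not tested.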

How the data were processed

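RNA of kidney tissue from 3 WT and 3 Trpm2-/- mice was extracted with Trizol. Libraries made with the NEBNext Ultra II kit were sequenced on an Illumina HiSeq instrument. The methods of the study do not name a region of the kidney for this RNA. The submitters' processing notes name HISAT2, StringTie and mm9 without roles or versions. The positions in the tables equal those of GRCm38 for 53499 of the 54409 genes found in GENCODE mouse release M21, so coordinates are given in GRCm38. The strand setting of the counting is not given in the sources used here.

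The authors deposited whole-number read counts per gene, without normalization, and FPKM values, which they made from counts, gene length and a library total. All columns were used. The count test was that of edgeR 4.0.16 under R 4.3.3 (default filterByExpr, TMM, two-sided quasi-likelihood test on genotype alone), with p values adjusted by Benjamini-Hochberg over 15816 genes. The common dispersion was 0.0445. The SE was derived from the log2 fold change and the F value of the test. FPKM was used for levels and for ratios of carriers. The code was tested on simulated data with known changes. With 3 counts as a floor, a carrier had to exceed 0.175 to 0.213 CPM to be seen, for counting error only. The edgeR p values weigh the difference between genotypes against the spread between mice, which is estimated with information shared over genes. They do not separate genotype from the source of the mice.

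Alternatives were DESeq2 1.42.0, limma 3.58.1 on log2(FPKM + 0.1) and log2(FPKM + 1), other scalings and filters, a replicate block and the omission of each mouse. The carriers were ordered by role, and 1 of them, which is counted in the totals, is not reported here. Values in each mouse are given for carriers with an adjusted p under 0.05 and for a fixed list of main carriers, and up to 4 genes of smallest p are named from each related list. The carriers, lists, pairs and motifs were chosen with earlier results of these data known. Shared 75-base windows and overlapping exons were computed from GENCODE, and promoters are from RefSeq.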

Additional observations from a re-analysis of the deposited data

How the results depend on the processing

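With another scaling, filter or gene set, the direction of each of the 22 carriers given by mouse was kept, and among these and the fits that left out 1 mouse only Slc25a30 changed sign, to 0.094 without Trpm2-/- replicate 2 and to 0.00372 without WT replicate 2, within a range of -0.18 to 0.094 over the fits of 5 mice. The carriers called lower numbered 17 by DESeq2, 19 with no filter on low counts and 7 by limma at either pseudocount, against 11. Of all genes, 1444 were lower by DESeq2, 1692 with no filter and 786 by limma with 0.1 as pseudocount, against 1152. By limma no carrier was called higher, with 3 higher at an unadjusted p under 0.05. Slc25a24 and Slc25a37 were each called in 8 of 16 alternatives, Slc25a16 in 5, Slc25a26 and Slc25a45 in 9 and Slc25a11 in 10. Slc25a39 was called in 14 and Slc25a25 in 15. At the threshold named in the study, 0 carriers were lower with limma on log2(FPKM + 1) and 1 with upper-quartile scaling, against 2. Of all genes, limma on log2(FPKM + 1) called 754 lower and 304 higher at an adjusted p under 0.05, and 398 lower and 117 higher at the threshold of the study. With 0.1 as pseudocount 338 were higher, and with no filter 1262 were higher, or 1073 at the threshold of the study. Related genes called higher numbered 2 by DESeq2, 0 with the size factors of DESeq2, 0 by limma at either pseudocount and 4 with no filter, against 1. The causes of these differences were not tested. Where the filter changed, the number of genes tested changed too.

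Leaving out each mouse in turn gave 6 to 12 carriers lower, 0 to 1 higher, 2 to 4 lower and 0 to 1 higher at the threshold of the study, and a median log2 fold change of -0.47 to -0.37. Of all genes, 470 to 1240 were lower and 160 to 819 higher at an adjusted p under 0.05. At the threshold of the study, 538 to 863 were lower and 476 to 743 higher. Of the related genes 7 to 18 were lower, with the fewest without WT replicate 3 (7) and WT replicate 2 (9), and 0 to 4 were higher. The difference of the log2 ratio of Slc25a12 to Slc25a13 ranged from -0.24 to 0.18, and turned above 0 without WT replicate 3 (0.00865) and without Trpm2-/- replicate 1 (0.18). That of Slc25a1 to Slc25a20 ranged from -0.14 to 0.00908, the latter without Trpm2-/- replicate 4. The differences of the other 9 pairs kept their sign, also with counts in place of FPKM and with 0.1 added.

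The numbers 1 and 2 occur in both genotypes. Mice with the same number had correlations of deviations of 0.0641 and -0.0120, and mice with different numbers had -0.248 to 0.217. With deviations from means of 3 mice, these values cannot decide whether mice with the same number were handled together. With the replicate number as a block, which uses up degrees of freedom, 6 carriers were lower and 0 higher (18 and 2 at an unadjusted p under 0.05), 4 were lower at the threshold of the study, and the median log2 fold change was -0.36. Of all genes 661 were lower and 341 higher, and of the related genes 9 were lower and 2 higher. At 3 mice a group, small differences and the 4 carriers with at most 4 counts cannot be judged.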
